A study of Mus musculus with 6 samples.

Results

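The genes described here are the nuclear-encoded subunits of the 5 oxidative phosphorylation complexes, taken by their symbols from a count table of 24516 genes. The symbol pattern (Nduf followed by a, b, c, s or v and a digit, Sdha to Sdhd, Uqcr, Cox4 to Cox8, and Atp5) found 84 genes. These were 37 of complex I, 4 of complex II, 8 of complex III, 18 of complex IV and 17 of complex V, filed by their names. Of these 78 passed a count filter that left 13427 genes for testing. Ndufs5, Cox4i2, Cox6b2, Cox7b2, Cox8b and Cox8c did not pass it. Atp5s, Atp5sl and Cox7a2l carry such names without being regarded as structural subunits of the complex they are named for, and they are counted among the 84. Ndufa4 is filed under complex I by its name, although its protein is now assigned to complex IV.

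The cells were the mouse embryonic fibroblast line iMGT-Myh6-eGFP-MEF, in which doxycycline at 1 ug/mL induces Mef2c, Gata4 and Tbx5, transcription factors that turn fibroblasts towards cardiomyocytes. All 3 groups received doxycycline, and they differed in the siRNA given the day before. The siRNA was a control (siControl) or directed against Junb (siJunb), whose protein is part of AP-1 transcription factors, or against H1f0 (siH1f0), the linker histone H1.0, with 2 biological replicates each. The sample labels place the harvest at day 1 and mention no sort, whereas the series description places it at day 3 with a GFP+ sort. No group without doxycycline was analysed here, so all values belong to induced cells of 1 line. The labels do not say how many siRNA sequences were used against each gene.

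Oxidative phosphorylation couples electron transfer in the inner mitochondrial membrane to ATP synthesis. Complexes I (NADH dehydrogenase) and II (succinate dehydrogenase) pass electrons to ubiquinone, complex III passes them to cytochrome c, and complex IV (cytochrome c oxidase) passes them to oxygen. Complexes I, III and IV pump protons, and complex V (ATP synthase) uses the gradient to make ATP. Most subunits are encoded in the nucleus and some in mitochondrial DNA. Heart muscle is rich in these complexes and uses muscle forms of some complex IV subunits, such as COX6A2 in place of COX6A1.

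Promoter sequence is shown for 4 genes on which the results turn: Ndufa4, the member called lower in siH1f0 against siControl, Cox6a1, the non-muscle partner of the muscle gene Cox6a2, and Atp5b and Sdha, the members called higher in siJunb. Each is the 250 bases before the RefSeq gene start (build GRCm38.p6), written 5′ to 3′ on the gene's strand. Capitals mark matches, on both strands, to CCGGAAG (the core bound by ETS factors such as GABP) or GCGCANGC (a part of the site of NRF1, a regulator of respiratory genes). AAGATGG (YY1) and TGANTCA (AP-1) were also searched and had 0 matches in these 4.
Ndufa4, chr6:11907451-11907700, minus strand: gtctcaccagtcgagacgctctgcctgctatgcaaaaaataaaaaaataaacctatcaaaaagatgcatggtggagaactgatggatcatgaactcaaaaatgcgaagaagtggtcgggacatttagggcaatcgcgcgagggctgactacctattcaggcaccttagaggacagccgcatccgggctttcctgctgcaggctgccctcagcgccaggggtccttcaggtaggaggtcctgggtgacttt
Cox6a1, chr5:115348959-115349208, minus strand: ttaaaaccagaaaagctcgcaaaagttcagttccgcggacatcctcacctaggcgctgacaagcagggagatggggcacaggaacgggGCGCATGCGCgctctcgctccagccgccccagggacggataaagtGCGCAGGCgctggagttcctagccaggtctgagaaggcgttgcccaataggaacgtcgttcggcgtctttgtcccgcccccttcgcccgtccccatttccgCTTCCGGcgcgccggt
Atp5b, chr10:128083057-128083306, plus strand: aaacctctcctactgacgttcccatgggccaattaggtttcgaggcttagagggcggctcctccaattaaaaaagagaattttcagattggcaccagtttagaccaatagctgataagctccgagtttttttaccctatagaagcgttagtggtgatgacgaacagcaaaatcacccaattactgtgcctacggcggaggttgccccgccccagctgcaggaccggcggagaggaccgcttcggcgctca
Sdha, chr13:74350241-74350490, minus strand: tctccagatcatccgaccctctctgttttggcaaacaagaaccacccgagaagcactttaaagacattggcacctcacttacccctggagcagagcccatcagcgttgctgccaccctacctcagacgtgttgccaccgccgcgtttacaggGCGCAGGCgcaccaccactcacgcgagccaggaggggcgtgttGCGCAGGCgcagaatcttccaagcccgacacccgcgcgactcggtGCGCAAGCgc
The Cox6a1 window held 1 ETS match and 3 NRF1 matches, of which 2 overlapped in a palindrome. The Sdha window held 3 NRF1 matches. The Ndufa4 and Atp5b windows held 0 matches to the 4 motifs. RefSeq promoter entries were found for 65 of the 78 tested genes, not including Cox6a2. CCGGAAG was found for 18.5% of these 65 and for 7.83% of all 27025 genes with an entry, and GCGCANGC for 27.7% and 9.38%. TGANTCA was found for 9.23% and 7.82%, and AAGATGG for 3.08% and 5.18%. These are letter matches in 250 bases, not measured binding.

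The libraries held 48690447 to 85979630 counts, of which the 84 genes took 0.937% to 1.05%. Levels are given as CPM, read counts scaled to a common library size with TMM factors, and differences as log2 ratios with their standard error (SE). A gene was called at an adjusted p under 0.05 in edgeR's quasi-likelihood test, with Benjamini-Hochberg adjustment over all genes tested. In siJunb, Junb stood at 10.7 and 8.90 CPM against 39.1 and 35.7 in siControl, and in siH1f0, H1f0 stood at 51.6 and 54.5 CPM against 798 and 743. H1f0 was also called lower in siJunb (log2 difference -0.23, adjusted p = 0.021). The 2 siControl libraries were further apart than the other pairs (a chi-square of 75.3 per degree of freedom, against 3.87 within siJunb and 3.88 within siH1f0, where sampling noise alone gives about 1), and the precursor ribosomal RNA Rn45s took 1.9% of counts in siControl 1 and 0.308% to 0.655% in the other 5. Nothing in the labels names a batch. Of the cell type markers, the fibroblast genes Col1a1 (1234 to 1406 CPM) and Vim (2541 to 2897 CPM) were high, while Thy1 had 1 count in 1 library and Col3a1 stood at 1.23 to 1.69 CPM. The 5 cardiomyocyte markers summed to 111 to 140 CPM, mostly Tnnt2, with Ryr2 at or near 0. The fibroblast list summed to 4510 to 4840 CPM. Called higher were Dcn (1.68, adjusted p = 9.28e-05) and Pdgfra (0.27, adjusted p = 0.0442) in siJunb, and Dcn (0.65, adjusted p = 0.0114) and Col1a2 (0.34, adjusted p = 0.00292) in siH1f0. The other tested fibroblast genes did not pass. In siJunb these were Col1a1 (-0.10), Col1a2 (-0.05), Vim (0.07) and Col3a1 (0.19). In siH1f0 they were Col1a1 (-0.15), Vim (-0.11), Col3a1 (-0.05) and Pdgfra (-0.05). The median of the list was 0.13 in siJunb and -0.05 in siH1f0. The macrophage list summed to 2.46 to 3.53 CPM, and of its 3 tested genes Csf1r was called higher in siJunb (1.39, adjusted p = 0.0276) at 0.210 to 0.691 CPM over the libraries. Cd68 was below 0 in siJunb without passing (-0.68, adjusted p = 0.182), and the median of the 3 was -0.15. The part of these cell types in the members' differences was not tested. Cidea and Adipoq (adipocyte), Myog (skeletal muscle) and Ptprc (leukocyte) had 0 counts in all libraries.

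The order of the complexes by summed level per gene length was the same in all 6 libraries. Summed over members, complex V reached 9338 to 10370 TPM, complex I 7782 to 8458, complex IV 6050 to 6628, complex III 2337 to 2555 and complex II 967 to 1040. TPM are length-scaled levels that allow genes to be compared with each other. The highest single gene was Atp5b, the catalytic beta subunit of ATP synthase, with a mean of 2570 TPM over the 6 libraries. Next came Cox4i1 (1128 TPM) and Cox6a1 (1049 TPM) of complex IV and Atp5a1 (891 TPM), the alpha subunit of ATP synthase. Ndufa4, filed under complex I, had a mean of 574 TPM. Uqcr11 (426 TPM) and Uqcr10 (398 TPM), small subunits, led complex III. Sdhd (324 TPM) and Sdhc (282 TPM), the membrane anchors, led complex II, above the flavoprotein Sdha (203 TPM) and the iron-sulphur subunit Sdhb (196 TPM). The tested members with the lowest levels were Ndufa4l2 (0.695 TPM), a relative of Ndufa4 known from hypoxia, Cox7a1 (2.08 TPM), a muscle form, and Atp5sl (14.8 TPM).

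Muscle, testis and lung forms of complex IV subunits were at or near 0, with Cox6a2 as the exception. The testis forms Cox7b2 and Cox8c had 0 counts in every library, which allows up to 0.0345 to 0.0628 CPM per library, counting error only. Cox6b2, also a testis form, had 2 counts in siH1f0 1 and 0 elsewhere. Cox4i2, the lung and hypoxia form, had 0 to 3 counts a library. Cox8b, a heart and muscle form in the mouse, had 0 counts in both siControl libraries, 2 and 4 in siJunb, and 4 and 3 in siH1f0, levels that cannot be told apart at this depth. Cox7a1 made up 0.276% to 0.752% of the Cox7a1 and Cox7a2 level per length, whereas Cox6a2 made up 10.3% to 21.2% of the Cox6a1 and Cox6a2 level. Ndufs5, a complex I subunit, had 1 count in all 6 libraries together. BC002163, a processed pseudogene at least 95% identical to it over at least 200 bases, had 1487 to 2770 counts a library. The reads of these 2 loci cannot be told apart here, and Ndufs5 was not described further.

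Levels in the 2 siControl libraries are given apart, while the tests pool them as 1 group. Of the 78 tested members, 76 were lower in siControl 2 than in siControl 1, with a median log2 difference of -0.16, while 51.4% of all tested genes were lower, with a median of -0.01. The members of every complex shared this: 35 of 36 in complex I, 4 of 4 in II, 8 of 8 in III, 12 of 13 in IV and 17 of 17 in V. The exceptions were Ndufa12, an accessory subunit of the matrix arm of complex I, at 72.6 CPM in siControl 1 and 93.4 in siControl 2, and Cox7a1 at 0.149 and 0.288 CPM. The lowest differences in complexes I, V and IV were those of Ndufa4l2 (-0.34), Atp5j2, the f subunit of ATP synthase (-0.29), and Cox6a2 (-0.27). Within the knockdown groups the median difference of replicate 2 from replicate 1 was 0.01 in siJunb and 0.04 in siH1f0.

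**Figure D1:**
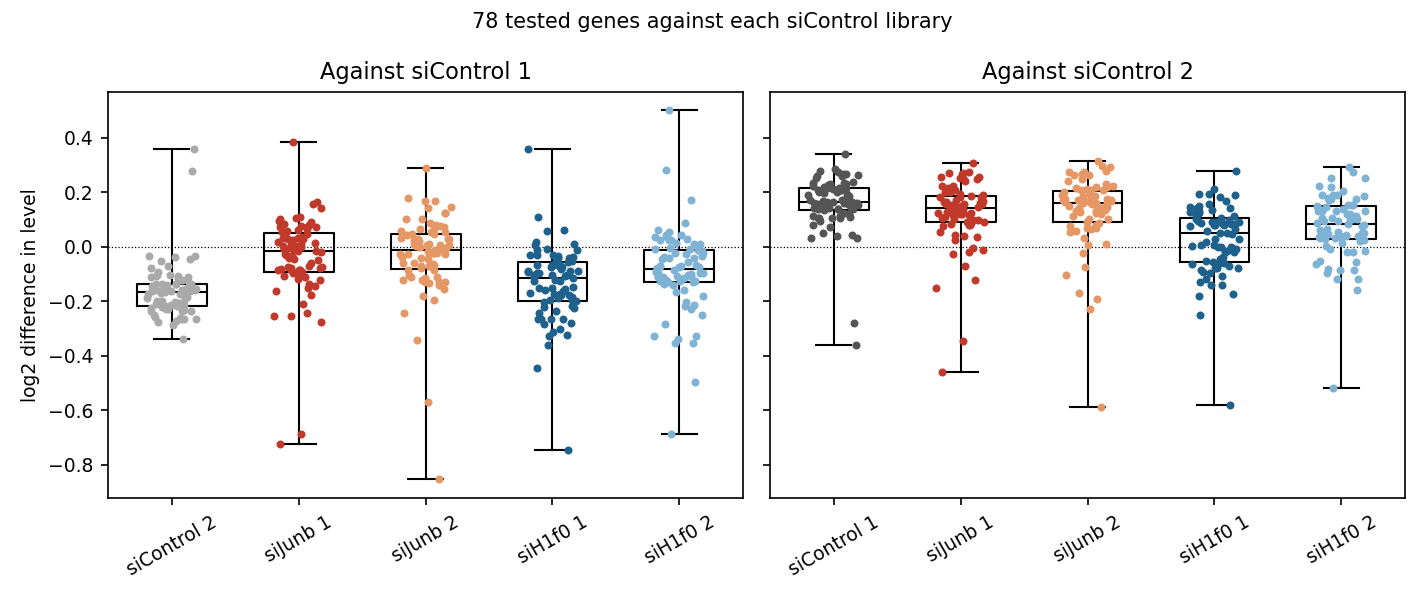
Log2 differences in level of the 78 tested genes in each other library against siControl 1 (left) and siControl 2 (right); points are genes, boxes span the quartiles with the median line, and whiskers reach the extremes. Both siJunb libraries centre near 0 against siControl 1 (medians -0.02 and -0.01) and above 0 against siControl 2 (0.14 and 0.16).

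Where a knockdown stood relative to control therefore depended on the library used. Against siControl 1 the member medians were -0.02 and -0.01 for the siJunb libraries and -0.11 and -0.08 for the siH1f0 libraries. Against siControl 2 the siJunb medians were 0.14 and 0.16, and the siH1f0 medians 0.05 and 0.09. In either case siJunb lay above siH1f0, but each siControl library is subtracted from both knockdowns alike. The 2 sets of medians are therefore not independent on this order. With siControl 1 left out, 52 members were called higher and 1 lower in siJunb, beside 18% and 15.6% of all genes tested in that fit. In siH1f0 it gave 21 higher and 3 lower, beside 9.03% and 12%. With siControl 2 left out the counts were 7 higher and 15 lower in siJunb, beside 22.1% and 18.1%, and 1 higher and 34 lower in siH1f0, beside 18.9% and 17%.

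Gene length moved with the siControl split. The tested members are short, with a median length of 752 bases in the count table against 2886 for all tested genes. Among all genes, those under 600 bases had a median siControl 2 minus siControl 1 difference of -0.16, those of 600 to 1000 bases -0.15, those of 1000 to 2000 bases -0.11, and those over 4000 bases 0.13. The members in the first 3 of these classes had medians of -0.17, -0.21 and -0.14. Between siJunb and siControl the members' medians in the same classes were 0.07, 0.03 and 0.08, and those of all genes -0.095, -0.02 and -0.02. The part of transcript length or RNA quality in the members' differences was not tested beyond a fit with the length trend removed, given below where it changed a count.

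**Figure D2:**
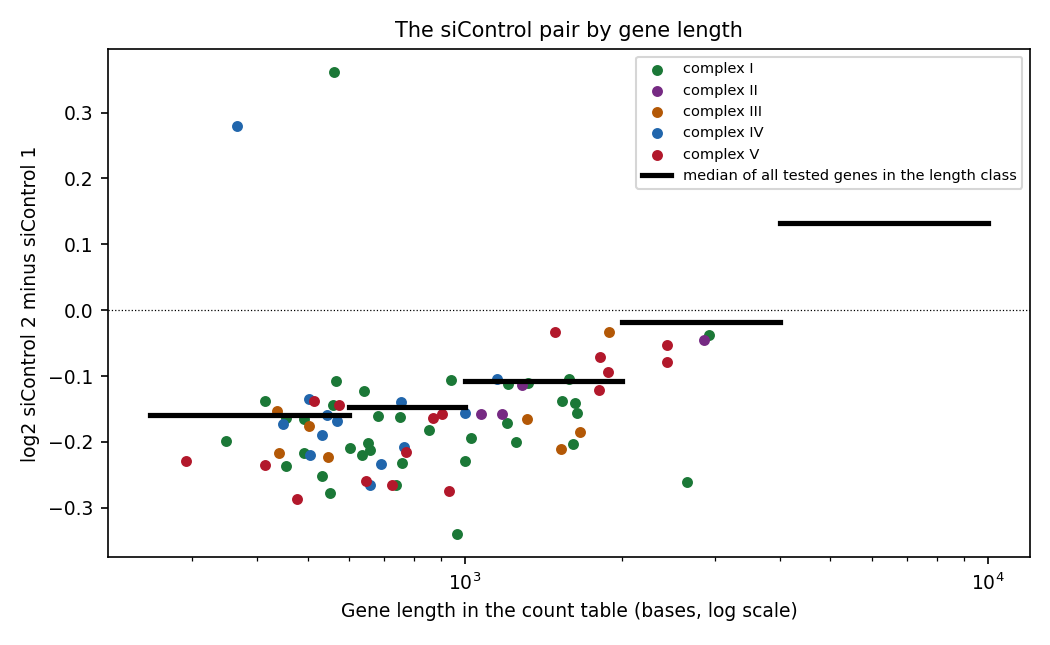
Log2 difference of siControl 2 from siControl 1 for each tested gene of the 5 complexes (points, by complex) against gene length in bases on a log axis; black lines are medians of all tested genes in 5 length classes. Genes under 600 bases have a median of -0.16 and those over 4000 bases of 0.13, and all but 2 of the points lie below 0.

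Knockdown of Junb lowered Cox6a2 and no other member by this test, and raised Atp5b and Sdha. The 2 higher calls among 78 compare with 8.63% of all tested genes called higher, and the 1 lower call with 7.82% called lower. Over the tested members the median log2 difference was 0.07 (61 above 0), against 0.00 over all tested genes. At an unadjusted p under 0.05 there were 15 members (19.2%), beside 31.7% of all tested genes. The member median was 0.15 without siControl 1 and -0.03 without siControl 2. Without any 1 of the siJunb or siH1f0 libraries it was 0.06 to 0.07. With library totals in place of TMM scaling, 1 member was higher and 1 lower, and the shares of all genes were 6.58% higher and 10.2% lower.

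Cox6a2 encodes the heart and skeletal muscle form of subunit 6A of cytochrome c oxidase. The gene lies on chromosome 7 at 128205435 to 128206366 (GRCm38.p6). It stood at 59.6 and 49.5 CPM in the siControl libraries, 35.8 and 32.7 in siJunb, and 60.1 and 60.8 in siH1f0. Both siJunb libraries were below all 4 others, and the siH1f0 libraries were above both siControl libraries. The log2 difference of siJunb from siControl was -0.67 ± 0.09 (SE, n = 2 a group; edgeR adjusted p = 0.00225). It stayed called under all 15 alternatives run, each left-out library included, between -0.80 and -0.53. The 3′ end of Itgad overlaps an exon of Cox6a2 on the other strand, and Itgad stood at 0.639 to 1.59 CPM. Itgad was also called lower in siJunb (-1.10, adjusted p = 0.02), and the sources used here do not give the strand setting of the counting.

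Cox6a1, the partner form found outside muscle, did not follow Cox6a2. Its levels were 227 and 199 CPM in siControl, 237 and 231 in siJunb (log2 difference 0.13, adjusted p = 0.193), and 181 and 187 in siH1f0 (-0.22, adjusted p = 0.0862). The Cox6a2 share of the 2 forms, per length, was 17.5% and 16.7% in siControl, 10.9% and 10.3% in siJunb, and 21.2% and 20.9% in siH1f0. The groups did not overlap, and within this share the siControl libraries were close together. Among the cardiomyocyte markers Actc1, cardiac alpha-actin, also fell in siJunb (-2.43, adjusted p = 7.86e-06), while Tnnt2 (0.02, adjusted p = 0.877) and Myh6 (-0.32, adjusted p = 0.0908) did not pass. In bulk RNA fewer cells with a transcript and less transcript per cell cannot be told apart, and a difference in the share of such cells was not tested. Skeletal muscle markers were at or near 0: the 5 listed genes summed to 1.03 to 1.21 CPM.

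**Figure D3:**
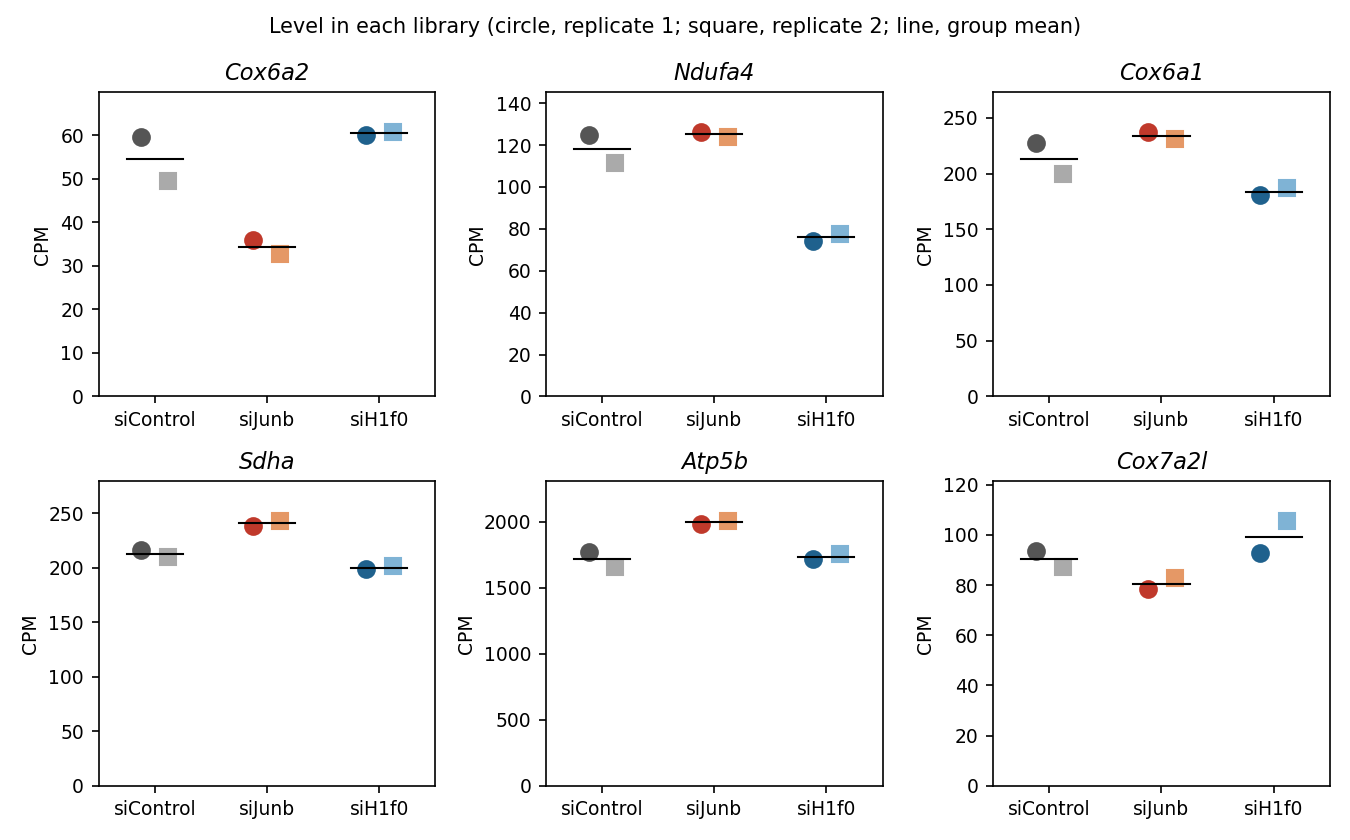
CPM of 6 genes in each library from a y axis at 0; circles are replicate 1, squares replicate 2, and lines group means. Cox6a2 is lowest in both siJunb libraries (35.8 and 32.7 CPM) and Ndufa4 in both siH1f0 libraries (74.4 and 77.5 CPM).

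Atp5b, at chromosome 10, 128083307 to 128090388, stood at 1770 and 1659 CPM in siControl, 1984 and 2006 in siJunb, and 1718 and 1752 in siH1f0. Its difference in siJunb was 0.22 ± 0.05 (SE; adjusted p = 0.0155). Sdha, the flavoprotein that oxidises succinate, at chromosome 13, 74322255 to 74350240, stood at 216 and 209 CPM in siControl, 239 and 243 in siJunb, and 199 and 202 in siH1f0. Its difference in siJunb was 0.18 ± 0.05 (SE; adjusted p = 0.0295). Both siJunb libraries lay above the other 4 for both genes. Each call was lost when any siJunb or siH1f0 library was left out (adjusted p up to 0.158 for Atp5b and 0.238 for Sdha). Atp5b and Sdha are longer (1879 and 2859 bases) than the typical member. They were higher in siJunb than in either siControl library taken alone. The part of gene length or of the siControl split in these differences was not tested.

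The members closest to the threshold in siJunb were Atp5c1, the gamma subunit (0.18, adjusted p = 0.0542), Atp5a1 (0.15, adjusted p = 0.0575), Cox7b (0.19, adjusted p = 0.0609) and Ndufs1 (0.13, adjusted p = 0.0932). Atp5c1 is named here after its values were seen. With the gene length trend removed, a fit added after the data were seen, 24 members were called higher in siJunb and 1 lower, beside 15.9% and 13% of all genes. The lower member was again Cox6a2. The 24 included Atp5a1, Atp5b, Atp5c1, Cox7b, Ndufs1 and Sdha.

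Knockdown of H1f0 lowered Ndufa4 and raised 0 members. The background was 4.27% of all tested genes called lower and 2.27% called higher. The median over members was -0.0045 (36 above 0), and over all tested genes 0.0034. At an unadjusted p under 0.05 there were 8 members (10.3%), 0 of them higher, beside 22.8% of all tested genes, 3060 in number with 1452 of them higher. DESeq2 called 2 lower (Ndufa4 and Ndufa8) and 0 higher, beside 5.37% and 3.57% of all genes. With limma-voom 1 was lower (Ndufa4) and 0 higher, beside 4.05% and 2.36%.

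Ndufa4 encodes a small protein first described in complex I and now placed in cytochrome c oxidase. The gene lies on chromosome 6 at 11900372 to 11907450. It stood at 125 and 111 CPM in siControl, 126 and 124 in siJunb, and 74.4 and 77.5 in siH1f0. Both siH1f0 libraries were below the other 4, and siJunb was near siControl 1. The log2 difference of siH1f0 from siControl was -0.64 ± 0.06 (SE, n = 2 a group; edgeR adjusted p = 0.000901), and from siJunb -0.72 ± 0.06 (SE; adjusted p = 0.00014). Both calls held under all 15 alternatives, with values of -0.72 to -0.55 and of -0.75 to -0.67. No near-identical transcript and no overlapping exon was found for Ndufa4 in the GENCODE M21 annotation.

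The relatives of Ndufa4 stood near 0 in all groups. Ndufa4l2 was at 0.460 and 0.258 CPM in siControl, 0.0959 and 0.147 in siJunb, and 0.366 and 0.180 in siH1f0, and passed in no comparison (adjusted p = 0.0944 for siJunb and 0.635 for siH1f0). Its exons overlap Shmt2, a highly expressed gene on the other strand. AA467197, a Ndufa4 paralogue outside the symbol pattern that was added after values were seen, stood at 0.356 and 0.228 CPM in siControl and 0.299 and 0.434 in siH1f0 (adjusted p = 0.696). Its siJunb libraries, at 0.527 and 0.691 CPM, were above the other 4 without passing (adjusted p = 0.104).

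Next to Ndufa4 the smallest p-values in siH1f0 were those of Cox6a1 (-0.22, adjusted p = 0.0862) and Ndufa8, a complex I subunit (-0.27, adjusted p = 0.0983). Cox5a (-0.22, adjusted p = 0.118), Cox4i1 (-0.20, adjusted p = 0.142), Ndufb7 (-0.21, adjusted p = 0.164) and Atp5g3 (-0.22, adjusted p = 0.169) followed, and none passed. With the length trend removed, 5 members were lower (Ndufa4, Ndufa8, Cox4i1, Cox5a and Cox6a1) and 4 higher (Cox6a2, Cox6c, Cox8a and Ndufa3), beside 9.17% and 6.83% of all genes.

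The direct comparison of the knockdowns uses the siControl libraries for the count filter, the scaling and the spread, but not as a group compared. In it 13 members were lower in siH1f0 than in siJunb and 2 higher, beside 13.8% and 12.2% of all tested genes. The median over members was -0.08 (20 above 0), against 0.00 over all tested genes, and 26 members (33.3%) had an unadjusted p under 0.05, beside 38.5% of all tested genes. When only the 4 knockdown libraries were fitted, 34 members were lower and 3 higher, beside 25.3% and 23.3% of all genes. Leaving out a single knockdown library gave member medians of -0.10 to -0.04. With library totals in place of TMM scaling 6 were lower and 2 higher, beside 9.98% and 16.5% of all genes.

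By complex, 3 of 36 members of complex I were called lower in siH1f0 than in siJunb, 2 of 4 of complex II, 1 of 8 of complex III, 4 of 13 of complex IV and 3 of 17 of complex V. Both members called higher belong to complex IV by name. The shares of members below 0 were 28 of 36, 3 of 4, 6 of 8, 6 of 13 and 15 of 17.

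**Figure D4:**
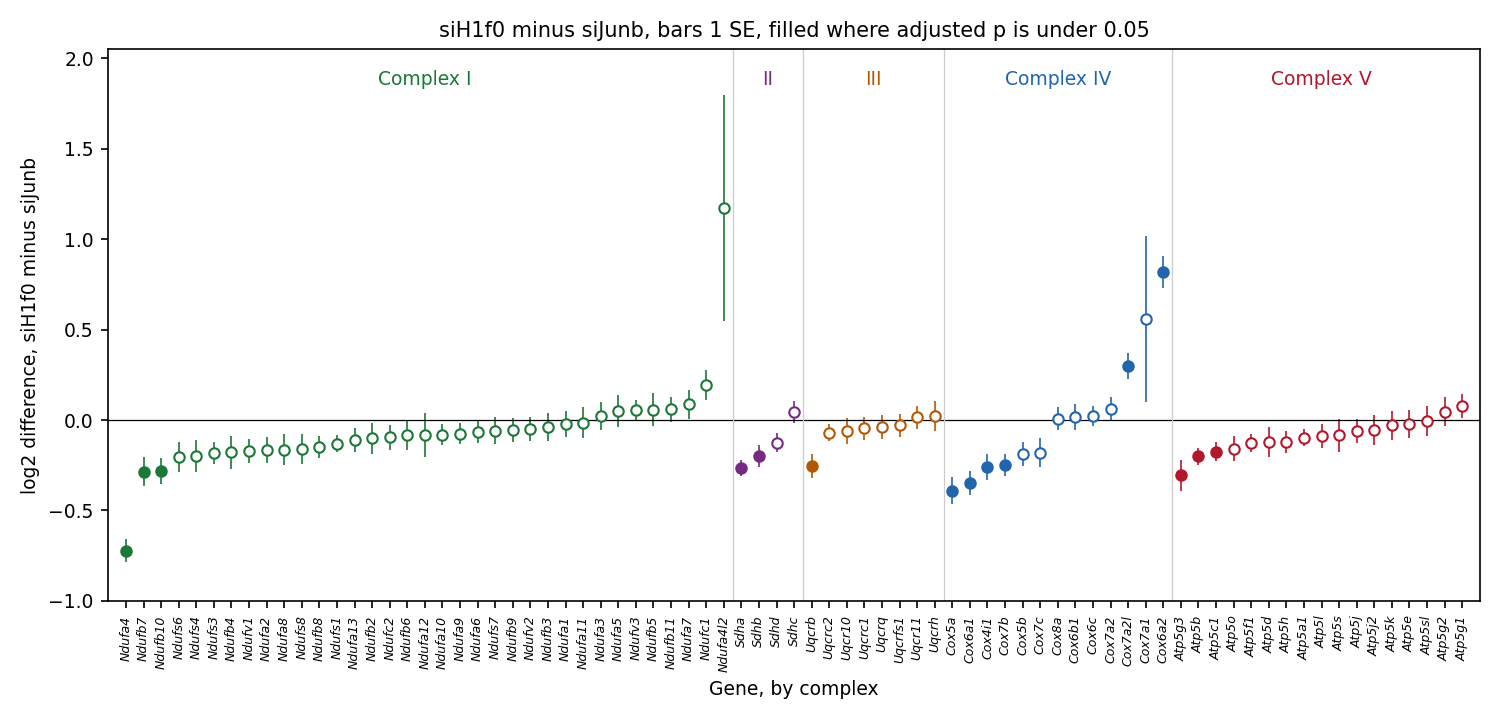
Log2 difference of siH1f0 from siJunb for the tested genes reported by name, by complex, with bars of 1 SE; filled points have an adjusted p under 0.05 (edgeR). Ndufa4 is lowest (-0.72), and Cox6a2 (0.82) is the higher of the 2 filled points above 0.

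In complex I the lower members besides Ndufa4 were Ndufb10 and Ndufb7, accessory subunits of the membrane arm. Ndufb10 stood at 76.4 and 75.7 CPM in siJunb and 61.3 and 63.9 in siH1f0 (-0.28 ± 0.07, SE; adjusted p = 0.0233), around siControl values of 71.7 and 61.6. Ndufb7, named after its values were seen, stood at 69.5 and 74.2 CPM in siJunb and 59.3 and 58.7 in siH1f0 (-0.29, adjusted p = 0.033), with siControl at 74.3 and 62.3. The core subunit Ndufs1 (-0.13, adjusted p = 0.0808) did not pass. Ndufa12, which split the siControl pair the other way, stood at 94.98 and 81.6 CPM in siJunb and 78.5 and 88.3 in siH1f0, overlapping groups (-0.08, adjusted p = 0.654).

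In complex II the catalytic subunits were lower in siH1f0 than in siJunb, Sdha by -0.27 ± 0.05 (SE; adjusted p = 0.00334) and Sdhb by -0.20 ± 0.06 (SE; adjusted p = 0.0424). Sdhb stood at 83.2 and 83.6 CPM in siJunb, 71.8 and 73.3 in siH1f0, and 85.0 and 76.2 in siControl. The anchors did not pass: Sdhc was at 122 and 127 CPM in siJunb and 128 and 128 in siH1f0 (0.04, adjusted p = 0.652), and Sdhd at 163 and 166 against 150 and 151 (-0.13, adjusted p = 0.113). The difference between catalytic and anchor subunits was not tested.

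In complex III, Uqcrb, which takes part in ubiquinone binding, was called lower. It stood at 75.6 and 76.8 CPM in siJunb, 63.0 and 64.9 in siH1f0, and 71.6 and 63.3 in siControl (-0.25 ± 0.07, SE; adjusted p = 0.0227). The core protein Uqcrc2 (-0.07, adjusted p = 0.317), the Rieske iron-sulphur protein Uqcrfs1 (-0.03, adjusted p = 0.771) and the hinge protein Uqcrh (0.02, adjusted p = 0.871) did not pass. Cyc1, the cytochrome c1 subunit that the symbol pattern leaves out, did not pass either (-0.12, adjusted p = 0.133).

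In complex IV, Cox5a, Cox6a1, Cox4i1 and Cox7b were lower in siH1f0. Cox5a stood at 151 and 156 CPM in siJunb and 119 and 115 in siH1f0 (-0.39 ± 0.07, SE; adjusted p = 0.00565), with siControl at 148 and 125. Cox6a1 differed by -0.35 ± 0.06 (SE; adjusted p = 0.00518). Cox4i1, the largest nuclear-encoded subunit, stood at 337 and 359 CPM in siJunb and 297 and 285 in siH1f0 (-0.26, adjusted p = 0.0276), with siControl at 357 and 309. Cox7b stood at 114 and 116 against 95.5 and 97.9 CPM (-0.25, adjusted p = 0.0167), with siControl at 106 and 95.1. For all 4 the siH1f0 libraries lay below both siJunb libraries. In this comparison the groups lay apart, in either direction, for 71.7% of all tested genes and 74.4% of members.

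Cox6a2 and Cox7a2l went the other way. Cox6a2 was higher in siH1f0 than in siJunb by 0.82 ± 0.09 (SE; adjusted p = 0.000393), and this call held under all 15 alternatives (0.75 to 0.88). Of the 4 tested cardiomyocyte markers 2 were also higher in this comparison, Actc1 (2.30, adjusted p = 4.42e-06) and Myh6 (0.69, adjusted p = 0.00266), and 0 lower. Their part in the Cox6a2 difference was not tested. Cox7a2l, which encodes a factor that helps join complexes III and IV into supercomplexes, stood at 93.7 and 87.1 CPM in siControl, 78.4 and 82.7 in siJunb, and 92.9 and 106 in siH1f0 (0.30 ± 0.07, SE; adjusted p = 0.016). That call was lost when either siJunb library or siH1f0 replicate 2 was left out (adjusted p up to 0.163). Its relative Cox7a2 (0.06, adjusted p = 0.511) and Cox8a (0.01, adjusted p = 0.946) did not pass.

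In complex V, Atp5b (-0.20 ± 0.05, SE; adjusted p = 0.0134), Atp5c1 (-0.17, adjusted p = 0.0447) and Atp5g3 (-0.31 ± 0.09, SE; adjusted p = 0.0293) were lower in siH1f0 than in siJunb. Atp5c1 stood at 180 and 185 CPM in siJunb, 164 and 160 in siH1f0, and 168 and 154.5 in siControl. Atp5g1, Atp5g2 and Atp5g3 encode the same membrane c subunit with different import sequences. Atp5g3 stood at 162 and 178 CPM in siJunb and 136 and 139 in siH1f0, with siControl at 175 and 145. Atp5g1 (0.08, adjusted p = 0.447) and Atp5g2 (0.05, adjusted p = 0.719) did not pass. The Atp5g3 share of the 3, per length, was 58.3% and 57.7% in siControl, 58.4% and 60.7% in siJunb, and 53.1% and 53.8% in siH1f0. The siH1f0 shares lay below the other 4.

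**Figure D5:**
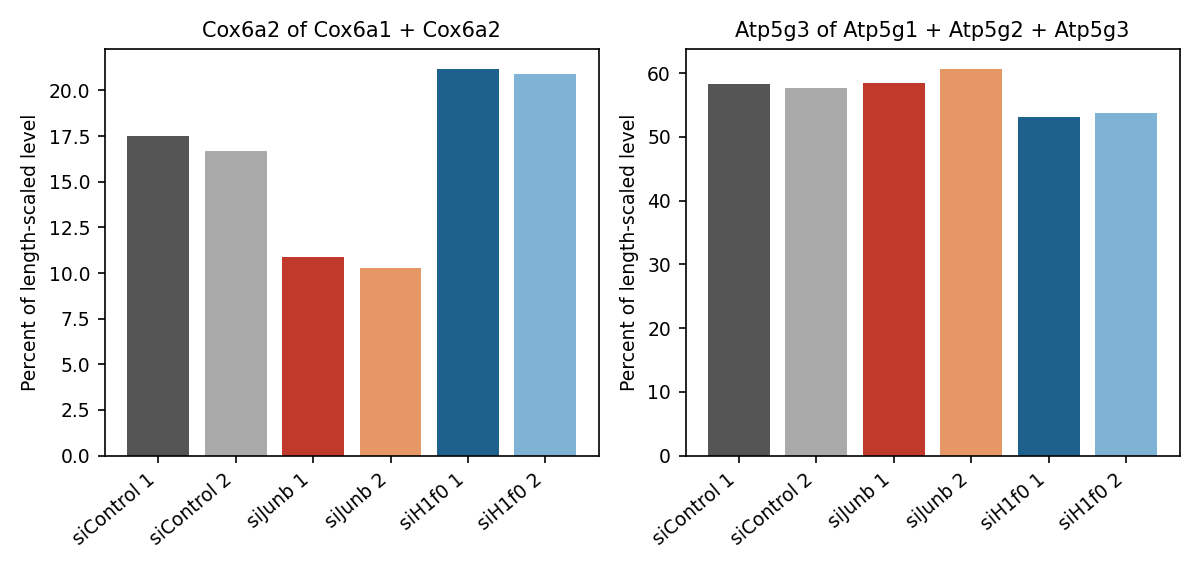
Share of the length-scaled level, in percent, taken by Cox6a2 among Cox6a1 and Cox6a2 (left) and by Atp5g3 among Atp5g1, Atp5g2 and Atp5g3 (right), as a bar for each library from 0. The Cox6a2 share is 10.9% and 10.3% in siJunb and 16.7% or more in the other libraries.

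Of the 15 members called in any comparison, 4 (Atp5c1, Cox7a2l, Cox7b and Uqcrb) have a processed pseudogene at least 95% identical over at least 200 bases, so reads could be split between copies. An exon overlaps another gene on the other strand for Cox4i1, Cox5a, Cox6a2 and Uqcrb. Between the knockdowns, each called member other than Ndufa4 and Cox6a2 lost its call when at least 1 siJunb or siH1f0 library was left out.

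Genes around the complexes were read from companion lists. Their counts stand beside the shares of all tested genes, 8.63% higher and 7.82% lower in siJunb, 2.27% and 4.27% in siH1f0, and 12.2% and 13.8% in siH1f0 against siJunb. In siJunb, 6 of 19 genes of the citric acid cycle and pyruvate dehydrogenase were higher and 1 lower. They included all 5 listed parts of pyruvate dehydrogenase, which feeds the cycle with acetyl-CoA. These were Pdha1 (0.40, adjusted p = 0.00126), Pdhx (0.34, adjusted p = 0.00233), Pdhb (0.20, adjusted p = 0.0183), Dld (0.20, adjusted p = 0.0194) and Dlat (0.19, adjusted p = 0.03). Of these, Pdhb, Dld and Dlat are named after their values were seen. Pdha1 stood at 187 and 195 CPM in siControl, 252 and 252 in siJunb, and 201 and 203 in siH1f0, and its call held under all 15 alternatives. Idh3b rose (0.26, adjusted p = 0.00713), and Idh2, the NADP-dependent isocitrate dehydrogenase, fell (-0.34, adjusted p = 0.0049). In siH1f0, 1 of the 19 was higher, Pcx (pyruvate carboxylase, 0.29, adjusted p = 0.0457), and 0 lower. Against siJunb, siH1f0 had 3 higher and 6 lower. Without either siJunb library the calls of Pdhb, Dld, Dlat, Idh3b and Idh2 in siJunb were lost (adjusted p up to 0.258), as those of Pdhb, Dld and Dlat were without either siH1f0 library. The Pdhx call was lost without siJunb replicate 2 (adjusted p = 0.0538), and the Pcx call without any 1 of the siJunb or siH1f0 libraries (adjusted p up to 0.32).

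Of 49 tested assembly factors 6 were higher and 2 lower in siJunb, 1 was higher and 1 lower in siH1f0, and 4 were higher and 5 lower in siH1f0 against siJunb. Uqcc3, needed for complex III assembly, fell from 7.58 and 6.21 CPM to 3.42 and 3.12 (-1.08 ± 0.13, SE; adjusted p = 0.00183), and stood at 7.25 and 6.69 in siH1f0. Uqcc1, which acts at the same step, rose (0.27, adjusted p = 0.0113). Cox15 fell (-0.39, adjusted p = 0.0029) and Cox10 rose (0.26, adjusted p = 0.0163), and both make the haem a of complex IV. In siH1f0 Coa5, a complex IV assembly factor, fell (-0.37, adjusted p = 0.00771) and Tmem126b, of complex I assembly, rose (0.29, adjusted p = 0.0392). The Uqcc3 call held under all 15 alternatives. The Uqcc1, Cox15 and Cox10 calls were lost once either siJunb library was removed (largest adjusted p = 0.151), and the Coa5 call without either siH1f0 library (adjusted p = 0.128 at most). The Cox10 call was also lost without either siH1f0 library, and the Tmem126b call without any 1 of the siJunb or siH1f0 libraries (adjusted p up to 0.292).

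Of 18 regulators of mitochondrial biogenesis 0 were called in siJunb, while in siH1f0 2 were lower: Pprc1, a PGC-1-related coactivator (-0.30, adjusted p = 0.00889), and Ssbp1, which binds mitochondrial DNA (-0.38, adjusted p = 0.0212). Against siJunb, siH1f0 had 0 of them higher and 3 lower. Of 78 mitochondrial ribosomal proteins 3 were higher and 6 lower in siJunb, and 0 higher and 2 lower in siH1f0, Mrpl18 (-0.57, adjusted p = 0.00208) and Mrps18b (-0.34, adjusted p = 0.0214). Against siJunb, siH1f0 had 7 of these higher and 13 lower. Cycs, cytochrome c, was the 1 called among 6 related genes outside the pattern, higher in siJunb (0.22, adjusted p = 0.0242). Of these calls, that of Mrpl18 was lost without siH1f0 replicate 1 (adjusted p = 0.0553) and that of Pprc1 without either siH1f0 library (adjusted p up to 0.158). Those of Ssbp1, Mrps18b and Cycs were lost without any 1 of the siJunb or siH1f0 libraries (adjusted p up to 0.257). The subunits encoded in mitochondrial DNA were not analysed here.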

How the data were processed

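Poly(A) RNA was sequenced from 6 libraries, 2 for each siRNA group, with groups and replicate numbers from the sample labels. The authors deposited a table of gene symbols with gene lengths and whole-number read counts, without normalisation. HISAT2, Subread, featureCounts and mm10 are named in the submitters' processing notes. Their versions, the annotation, the handling of strand and of multiply mapped reads are not stated there or in the labels. Counts were analysed with edgeR 4.0.16 in R 4.3.3 (TMM scaling, filterByExpr, quasi-likelihood F test on all 6 libraries, 3 residual degrees of freedom, Benjamini-Hochberg adjustment over 13427 genes). With 2 libraries a group the smallest two-sided exact permutation p is 0.333, and calls therefore rest on a spread estimated over many genes. P-values measure the spread between these libraries only. CPM were computed from the TMM-scaled library sizes, and TPM from the deposited gene lengths. Differences between single libraries are of log2(CPM + 0.5).

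Members and companion lists were chosen with earlier results of these data known. The text names members by a rule: the 12 called members with the smallest adjusted p, isoform families, complex II, and in each complex the highest 2 and lowest levels, the extremes of the siControl pair, and the smallest p per comparison. Some genes that meet the rule are left out of the text. Of a companion list it names up to 4 called genes by smallest p. The script was tested on simulated counts for siJunb against siControl. It recovered 45.5% of set differences of 1.25-fold, 76.1% of 1.5-fold and 92.3% of 2-fold. Of its 159 calls 18 fell on genes without a set difference. Atp5b and Sdha differed by less than these folds in siJunb, at 1.16-fold and 1.13-fold. Alternatives were DESeq2 1.42.0, limma-voom (limma 3.58.1), RLE size factors, library totals, no count filter, a filter at a mean of 5 CPM, only the 4 libraries compared, a replicate block, each library left out, and, added after the data were seen, removal of the gene length trend. Near-identical transcripts were sought with blastn 2.17.0 in GENCODE M21.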

Additional observations from a re-analysis of the deposited data

How the results depend on the processing

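The Cox6a2 and Ndufa4 calls held under all 15 alternatives in each comparison where they were made. The counts of called members did not. In siJunb 1 member was higher with library totals only, beside 6.58% of all genes. Without a count filter 7 were higher and 4 lower, beside 9.13% and 9.32%. DESeq2 gave 4 higher, beside 9.22%, and a fit of only the 4 libraries compared gave 0, beside 3.94%. With the gene length trend removed 24 were higher, beside 15.9%. In siH1f0 7 were lower without a count filter, beside 6.02%, and 2 with DESeq2, beside 5.37%. With the length trend removed 5 were lower and 4 higher, beside 9.17% and 6.83%. For siH1f0 against siJunb 6 were lower with library totals only (median -0.033), beside 9.98%. With only the 4 libraries compared 34 were lower, beside 25.3%. In that fit siControl enters neither the count filter, the scaling nor the spread. With the length trend removed 25 were lower, beside 20.3%. The cause of these changes was not tested.

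Leaving out each library in turn gave 0 to 52 higher, 1 to 15 lower and medians of -0.026 to 0.15 in siJunb. It gave 0 to 21 higher, 1 to 34 lower and -0.11 to 0.063 in siH1f0, and 1 to 3 higher, 1 to 35 lower and -0.10 to -0.041 for siH1f0 against siJunb. Both ends of the siJunb and siH1f0 medians came from leaving out a siControl library, and the library left alone then takes its spread from the other groups. In every comparison the shares of all genes called higher and lower also rose when a siControl library was left out. They fell when a siJunb or siH1f0 library was left out. The ranges of member counts alone therefore do not show a change particular to the members. Without siControl replicate 1, Atp5g2 (0.13, adjusted p = 0.0332) and Atp5j2 (0.14, adjusted p = 0.0022) turned from below to above 0 in siJunb, and Ndufa12 (-0.16, adjusted p = 0.0279) from above to below 0 in siH1f0. Without siControl replicate 2 the same differences were -0.14, -0.15 and 0.20.

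The replicate block gave 1 higher and 1 lower in siJunb, 0 and 1 in siH1f0, and 2 and 11 for siH1f0 against siJunb. The shares of all genes were 6.46% and 6.08%, 1.11% and 2.99%, and 10.2% and 11.5%. Correlations of same-numbered libraries' deviations were 0.02 (siControl with siJunb), -0.12 (siControl with siH1f0) and 0.04 (siJunb with siH1f0) across all genes, and -0.20, 0.39 and -0.20 across members. No label ties them. Depth limits Cox4i2, Cox6b2, Cox7b2, Cox8b and Cox8c, at or near 0 counts.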
